A study of Homo sapiens with 27 samples.

Results

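DNA repair and checkpoint genes were followed in HepG2 cells, a human hepatocellular carcinoma line, given 1 of 9 polycyclic aromatic hydrocarbons (PAHs) for 48 h. The 34 genes were taken by name, from the non-control probes whose gene symbol, older symbol or transcript belongs to them, and not by their measured values. All 34 had a probe and passed the filter on dim probes on both array platforms, out of 17265 genes tested on the platform that 8 compounds share and 14381 on that of the remaining compound. They were placed in 8 classes, namely base excision repair (7), nucleotide excision repair (5), direct reversal (1), mismatch repair (2), end joining (3), homologous recombination (8), the Fanconi anaemia pathway (4) and checkpoint kinases (4).

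The compounds were benzo[a]pyrene (BaP), phenanthrene (PH), chrysene (CHR), benzo[a]anthracene (BA), benzo[k]fluoranthene (BF), indeno[1,2,3-c,d]pyrene (IND, on its own platform), dibenzo[a,h]anthracene (DBA), 3-methylcholanthrene (3MC) and naphthalene (NP). Each had 3 arrays, where Cy5 marked RNA from cells with the compound and Cy3 marked RNA from cells with DMSO, the solvent. There was no dye swap, the doses are not given, and the labels do not say whether the 3 arrays are separate cultures or share DMSO RNA, so the spread between arrays may be technical. Values are log2 ratios of compound over DMSO unless stated, given as the mean and SD of 3 arrays. A gene is said to have risen or fallen at an adjusted p under 0.05 in limma (Benjamini and Hochberg over all genes tested) with a change of at least 1.5-fold.

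Cells mend damaged DNA by several routes. Base excision repair removes small altered bases, nucleotide excision repair cuts out bulky lesions such as the adducts that oxidised PAHs form with DNA, and mismatch repair corrects copying errors. Breaks through both strands are joined end to end, or rebuilt from the sister chromatid by homologous recombination, which works in cells that are replicating or have replicated their DNA. The Fanconi anaemia proteins act on links between the strands. The kinases ATM and ATR sense damage and signal through CHEK2 and CHEK1 to hold the cell cycle. In liver cells PAHs are oxidised by cytochrome P450 enzymes whose genes the aryl hydrocarbon receptor (AHR) switches on, while E2F factors drive many replication and recombination genes as cells enter S phase.

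The promoters of the members that fell with the most compounds (CHEK1 and BLM) and of the member that rose with the most (ERCC1) are shown, as the 250 bases before the start in the RefSeq table of build GRCh38.p14. CHEK1 lies at chr11:125625979-125626228 on the plus strand, BLM at chr15:90717096-90717345 on the plus strand and ERCC1 at chr19:45451548-45451797 on the minus strand. LIG1, at chr19:48170345-48170594 on the minus strand, and RAD51C, at chr17:58692323-58692572 on the plus strand, were added after the matches had been seen. They were picked because they are among the members given array by array and their windows hold a match. Capitals mark matches to the motifs searched on both strands, which were TTTCCCGC, TTTCGCGC, TTTGCCGC and TTTGGCGC for E2F, TNGCGTG for AHR and TTTGAA for the cell cycle homology region.
CHEK1: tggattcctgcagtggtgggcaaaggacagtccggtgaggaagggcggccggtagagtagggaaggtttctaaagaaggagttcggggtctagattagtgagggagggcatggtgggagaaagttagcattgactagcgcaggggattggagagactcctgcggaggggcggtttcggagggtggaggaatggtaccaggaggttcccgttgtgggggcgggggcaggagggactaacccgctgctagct
BLM: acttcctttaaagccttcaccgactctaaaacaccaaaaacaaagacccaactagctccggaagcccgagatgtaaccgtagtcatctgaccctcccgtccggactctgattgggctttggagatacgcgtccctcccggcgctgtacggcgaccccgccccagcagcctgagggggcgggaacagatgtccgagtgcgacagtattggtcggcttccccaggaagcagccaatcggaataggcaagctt
ERCC1: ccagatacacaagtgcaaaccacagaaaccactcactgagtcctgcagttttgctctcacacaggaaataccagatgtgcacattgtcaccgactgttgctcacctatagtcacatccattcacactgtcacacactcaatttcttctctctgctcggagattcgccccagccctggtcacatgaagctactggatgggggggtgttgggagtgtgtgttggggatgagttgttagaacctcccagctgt
LIG1: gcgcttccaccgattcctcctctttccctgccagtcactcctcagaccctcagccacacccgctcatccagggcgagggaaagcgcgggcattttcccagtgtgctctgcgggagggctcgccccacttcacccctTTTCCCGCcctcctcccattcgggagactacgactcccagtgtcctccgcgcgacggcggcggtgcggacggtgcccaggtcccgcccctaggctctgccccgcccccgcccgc
RAD51C: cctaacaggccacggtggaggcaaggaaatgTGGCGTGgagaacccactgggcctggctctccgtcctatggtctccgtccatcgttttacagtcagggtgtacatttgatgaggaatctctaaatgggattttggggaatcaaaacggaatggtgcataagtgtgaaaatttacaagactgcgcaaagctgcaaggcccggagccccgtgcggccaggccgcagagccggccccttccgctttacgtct
The LIG1 window held 1 E2F match, TTTCCCGC, at bases -114 to -107 before the start, and the RAD51C window held 1 AHR match, TGGCGTG, at bases -219 to -213. Neither match overlapped another motif. The CHEK1, BLM and ERCC1 windows held none of these letters. The CHEK1 window lies inside the span of the gene, which begins at base 125625136, so it precedes a later start. The ERCC1 window lies before the outermost start of the gene. Windows before other starts of a gene were not searched. Of the 32 members with an entry in the table, 2 held an E2F match, 1 an AHR match and 3 a cell cycle homology region, against 2.79%, 4.52% and 13.3% of all 35116 promoters of the same length. Of the 10 members with an entry that fell with at least 5 compounds, 0 held a match to any of the motifs. FANCI and XRCC5 had no entry.

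Before the results, 3 features of the arrays bear on the values. Arrays of 1 compound correlated with each other, over the log2 ratios of all genes, at 0.863 to 0.984, except that BA array 1 correlated at 0.126 and 0.177 with BA arrays 2 and 3. BA is therefore given with and without that array. The DBA, 3MC and NP arrays had a median Cy5 signal of 36 to 124 intensity units above background and a scanner layout of their own, while the other arrays had 299 to 1484. An offset of 50 was added to both channels of all arrays, which draws the ratios of dim spots towards 0. Small ratios of dim spots on the DBA, 3MC and NP arrays are therefore not a measure of a small change. All 10 hepatocyte markers stood above background in DMSO on at least 24 of 27 arrays, as did 1 of 6 markers of blood, fibroblast and endothelial cells (VWF). The rest of the 6 also stood above it on most arrays tested, COL3A1 on 22 of 27, CD14 on 21 of 27, PTPRC on 19 of 24, PECAM1 on 18 of 24 and COL1A1 on 16 of 24. The median DMSO intensities of the 6 were 53.5 (PTPRC) to 376 (CD14), and those of the hepatocyte markers 5352 (HNF4A) to 56694 (TF). The DMSO channel itself was not alike on all arrays. Measured as log2 over the array's median spot, the DMSO level of 13 of 34 members differed by at least 2 between compounds of the shared platform, and that of 8 members by at least 3. NTHL1, for example, stood at -0.86 on the BaP arrays and -0.83 on the PH arrays, and between 1.91 and 2.92 on those of the other 6 compounds sharing the platform. MGMT likewise stood at -0.09 and -0.19 on the BaP and PH arrays, and between 2.04 and 2.81 on the others.

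Across the 9 compounds, the 34 members fell far more often than they rose. Of 306 pairs of member and compound, 99 fell and 20 rose. Of all genes tested, 3.10% (BA) to 20.4% (BF) fell with a compound and 2.04% (BA) to 16.0% (BF) rose. More of all genes fell than rose with every compound but BaP and PH. With NP 3 of 34 members fell, a smaller share than the 12.6% of all genes. Of the members, 21 fell with at least 1 compound and rose with none, 4 rose and fell with none (OGG1, ERCC1, ERCC3 and ATR), and 4 rose with some and fell with others (NTHL1, PARP1, LIG1 and RAD51C). XRCC1, XRCC5, XRCC6, ERCC5 and ATM passed with no compound. Over all 17584 genes tested with any compound, 28.3% fell with at least 1 and rose with none. The shares that rose and fell with none, did both and did neither were 23.1%, 11.2% and 37.5%. In these bulk samples, fewer cells that express a gene and less RNA per cell cannot be told apart.

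**Figure D1:**
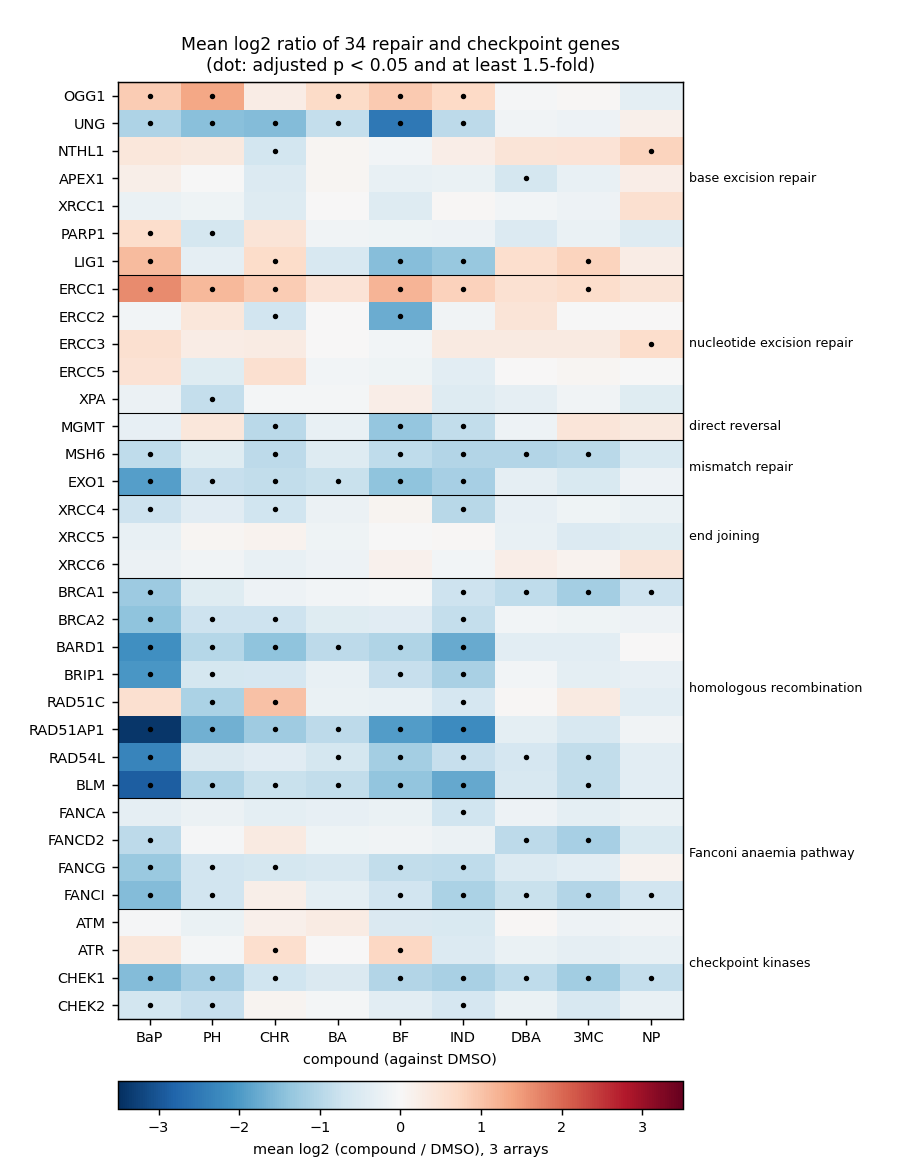
Mean log2 ratio of compound over DMSO (colour, 3 arrays) of the 34 members (rows, by class) with each of 9 compounds (columns), where a dot marks a gene that rose or fell at an adjusted p under 0.05 and at least 1.5-fold. Blue dotted cells are most frequent in the CHEK1, BLM and FANCI rows and next in those of UNG, MSH6, EXO1, BARD1, RAD51AP1 and RAD54L, and the red dotted cells lie mainly in the OGG1 and ERCC1 rows.

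With BaP, 16 of 34 members fell and 4 rose, while 10.0% of all genes tested fell and 15.1% rose, and the median member ratio was -0.31, against 0.03 over all genes. With BaP 15 fell and 7 rose with median centring. With each of the other 8 compounds the median over all genes lay between -0.01 and 0.04. With PH, 14 fell and 2 rose (7.89% and 10.6% of all genes), with a median of -0.42. With CHR, 13 fell and 4 rose (12.3% and 11.7%), with a median of -0.37. BaP, PH and CHR thus each had a larger share of members than of all genes among the falls, and a share of rises near or below that of all genes.
With BF, 14 members fell and 3 rose (20.4% and 16.0% of all genes), with a median of -0.38. With IND, 19 fell and 2 rose (13.2% and 10.5%), with a median of -0.64, the lowest of the 9. With BA, 6 fell and 1 rose (3.10% and 2.04%), with a median of -0.20, and 8 fell and 2 rose without BA array 1 (with 10.5% of all genes). With BA fitted alone, with its own spread, 0 members passed in limma (16 had an unadjusted p under 0.05), so every fall and rise given for BA depends on the joint fit. With BA 5 fell and 2 rose with median centring, and 4 fell and 0 rose with the authors' deposited log2 ratios. CHEK1, ERCC1 and MSH6 were the 3 that passed with BA only when array 1 was left out.
With DBA, 7 members fell and 0 rose (7.25% and 3.08% of all genes). The absence of rises depends on the normalisation, since 5 fell and 5 rose with median centring in place of loess, and 6 fell and 3 rose of 22 tested with the authors' deposited log2 ratios. The median was -0.24. In limma, 25 members had an unadjusted p under 0.05 with DBA. With 3MC, 7 fell and 2 rose (7.47% and 3.68%), with a median of -0.25. With NP 3 fell and 2 rose (12.6% and 6.72%), with a median of -0.20. With median centring 9 fell and 0 rose with NP, and with the authors' deposited log2 ratios 3 fell and 4 rose of 32 tested. These dim arrays also depend on the background correction. With plain subtraction of the local background 16 fell and 3 rose with DBA, 12 fell and 2 rose with 3MC, and 5 fell and 3 rose with NP. In limma's F test, 33 of 34 members differed among the 8 compounds of the shared platform, as did 89.8% of all genes, and FANCA did not pass (adjusted p = 0.179).

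Of the 7 base excision repair members, OGG1 rose with 5 compounds and UNG fell with 6, and LIG1 went both ways. OGG1 is the glycosylase that removes oxidised guanine. Its ratios were 1.5, 1.40 and 1.18 on the PH arrays, 0.92, 0.92 and 0.88 with BF and 0.82, 0.95 and 0.91 with BaP. They were 0.63, 0.77 and 0.66 with IND and 0.25, 0.87 and 0.87 with BA, where array 1 was the low one. With CHR, DBA, 3MC and NP its 12 arrays lay between -0.37 and 0.37. Its probes did not agree, since a second OGG1 probe gave -0.32 with BaP and 0.84 with BF, and another gave 0.66 and -0.57. With PH all 3 probes were above 1. As a mean over its probes OGG1 did not pass with BaP (0.41), BF (0.39), IND (0.41) or BA (0.33), and with the single probe it missed the minimum change with BA without BA array 2 or 3 (0.56 each).

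UNG, which cuts uracil out of DNA, fell by 2.49 ± 0.43 with BF, by 1.51 ± 0.30 with CHR and by 1.45 ± 0.21 with PH (SD, n = 3 each). The BF arrays read -2.63, -2.83 and -2.01, the CHR arrays -1.19, -1.79 and -1.55 and the PH arrays -1.49, -1.23 and -1.64. With BaP the arrays read -0.91, -1.22 and -1.15, with IND -0.97, -0.84 and -0.90 and with BA -0.28, -1.14 and -1.10. On the DBA, 3MC and NP arrays UNG stayed between -0.21 and 0.25. Among the arrays of the other 6 compounds BA array 1 lay closest to these. In BF the compound channel of UNG stood above background on 2 of 3 arrays.

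LIG1, the ligase that seals nicks in replication and repair, split the compounds. It rose with BaP, 3MC and CHR, with 1.15, 0.91 and 1.25 on the BaP arrays, 0.78, 0.77 and 0.76 on the 3MC arrays and 0.83, 0.51 and 0.57 on the CHR arrays. It fell with BF and IND, with -1.38, -1.5 and -1.60 on the BF arrays and -1.29, -1.33 and -1.35 on the IND arrays. The gap between BaP and BF was over 2 on the log2 scale. With PH, BA, DBA and NP the means were -0.32, -0.56, 0.58 and 0.25, none past the threshold. NTHL1, a glycosylase for oxidised pyrimidines, rose with NP (0.86, 0.83 and 0.66) and fell with CHR (-0.51, -0.70 and -0.74). With the other 7 compounds its arrays lay between -0.14 and 0.49. PARP1, which senses nicks, rose by 0.61 ± 0.06 with BaP and fell by 0.62 ± 0.08 with PH. APEX1, the endonuclease that cuts at abasic sites, fell with DBA alone among the 9 (-0.61 ± 0.09), and its second probe read -0.92 with DBA, -1.36 with BF and -0.98 with CHR, where the probe used read -0.61, -0.26 and -0.48. Without 1 array each missed the minimum change in a comparison, LIG1 with CHR at 0.54 without CHR array 1, PARP1 with BaP at 0.58 without BaP array 2 and APEX1 with DBA at -0.56 without DBA array 2. With median centring in place of loess APEX1 with DBA stood at -0.17, NTHL1 with NP at 0.54 and PARP1 with PH at -0.52. The scaffold XRCC1 ranged between -0.44 (CHR) and 0.57 (NP).

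Of the 5 nucleotide excision repair members ERCC1 passed with the most compounds, ERCC2, ERCC3 and XPA with 1 or 2 each and ERCC5 with none. ERCC1, a subunit of the nuclease that makes the incision 5′ of a lesion, rose with 6 compounds. Its BaP arrays read 1.57, 1.71 and 1.67, its BF arrays 1.22, 1.22 and 1.13 and its PH arrays 1.09, 1.18 and 1.17. The CHR arrays read 0.88, 0.93 and 0.87, the IND arrays 0.68, 0.83 and 0.89 and the 3MC arrays 0.63, 0.58 and 0.63. On 26 of 27 arrays ERCC1 was above 0, and the exception was BA array 1 at -0.23, where BA arrays 2 and 3 stood at 0.81 and 0.82. In intensity units above background, the ERCC1 spot averaged 8349 with BaP and 2493 in DMSO on the same arrays. With DBA and NP the ratios were 0.54 ± 0.06 and 0.46 ± 0.06, short of the minimum change. ERCC3, a helicase of the repair factor TFIIH, rose with NP only among the 9 (0.63 ± 0.04), with BaP next at 0.55. ERCC2, the other TFIIH helicase, fell with BF (-1.73 ± 0.06) and CHR (-0.67 ± 0.35), but its compound channel stood above background on 1 of 3 arrays of each, and with CHR it missed the minimum change without CHR array 2 (-0.55). A second ERCC2 probe read -1.86 with BF and -1.13 with CHR, but 0.98 with PH and 0.63 with NP, where the probe used read 0.40 and 0.02. With median centring ERCC3 with NP stood at 0.38. XPA, a scaffold at the lesion that binds ERCC1, fell with PH (-0.84 ± 0.10). ERCC5, the nuclease on the 3′ side, passed with none, at -0.42 with PH to 0.57 with CHR.

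Direct reversal is represented by MGMT, which takes alkyl groups off guanine. It fell with BF (-1.48, -1.27 and -1.35), CHR (-0.91, -0.90 and -1.02) and IND (-0.95, -0.90 and -0.77). With 3MC, PH and NP it stood at 0.42, 0.41 and 0.35, and with BaP, BA and DBA at -0.30, -0.25 and -0.18. Every array of the 3 compounds with a fall lay below every array of the other 6, a split taken from these same values.

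Both mismatch repair members fell widely. MSH6, which recognises mismatched bases, fell with 6 compounds within a narrow span of means, between -1.03 with DBA and -0.88 with BaP. The DBA arrays read -1.08, -1.04 and -0.99, the IND arrays -1.04, -1.08 and -0.93 and the 3MC arrays -0.93, -1.04 and -0.88. The CHR arrays read -0.91, -0.91 and -0.92, the BF arrays -0.95, -0.85 and -0.90 and the BaP arrays -1.01, -0.87 and -0.77. NP and PH were less low, at -0.54 ± 0.06 and -0.44 ± 0.17, and BA array 1 was the only one of the 27 arrays above 0, at 0.14. With median centring MSH6 with BF stood at -0.30 and did not pass. EXO1, the exonuclease that removes the mismatched stretch, fell with 6 compounds too, but its depth varied more. It read -1.71, -1.87 and -2.21 with BaP, -1.25, -1.45 and -1.55 with BF and -1.18, -1.11 and -1.16 with IND. It read -1.04, -0.80 and -0.77 with CHR, -0.69, -0.82 and -0.91 with PH and -0.36, -0.95 and -0.99 with BA. On the DBA, 3MC and NP arrays EXO1 lay between -0.54 and -0.14, where MSH6 lay between -1.08 and -0.48. The EXO1 spot was dim there, with an average of 11.2 intensity units with DBA and 25.6 in DMSO. The offset of 50 is larger than both, so this ratio was drawn towards 0.

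Of the 3 end joining members only XRCC4 passed with any compound. XRCC5 and XRCC6, the Ku proteins that cap broken ends, passed with none, with means of -0.47 (3MC) to 0.13 (CHR) and -0.26 (CHR) to 0.45 (NP). With median centring XRCC5 with BF stood at 0.73 and passed. Of 6 other end joining genes 3 fell with BF (median -0.55, with 20.4% of all genes falling). At most 1 of the 6 fell with any other compound, and 1 rose with NP. A second XRCC6 probe read -0.55 with BF, where the probe used read 0.15. XRCC4, the partner of the ligase that closes the ends, fell with IND (-0.99, -0.91 and -1.03), BaP (-0.69, -0.61 and -0.87) and CHR (-0.93, -0.60 and -0.55), the last missing the minimum change without CHR array 1 (-0.57). With BF it stood at 0.09 ± 0.08, the highest of the 9.

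**Figure D2:**
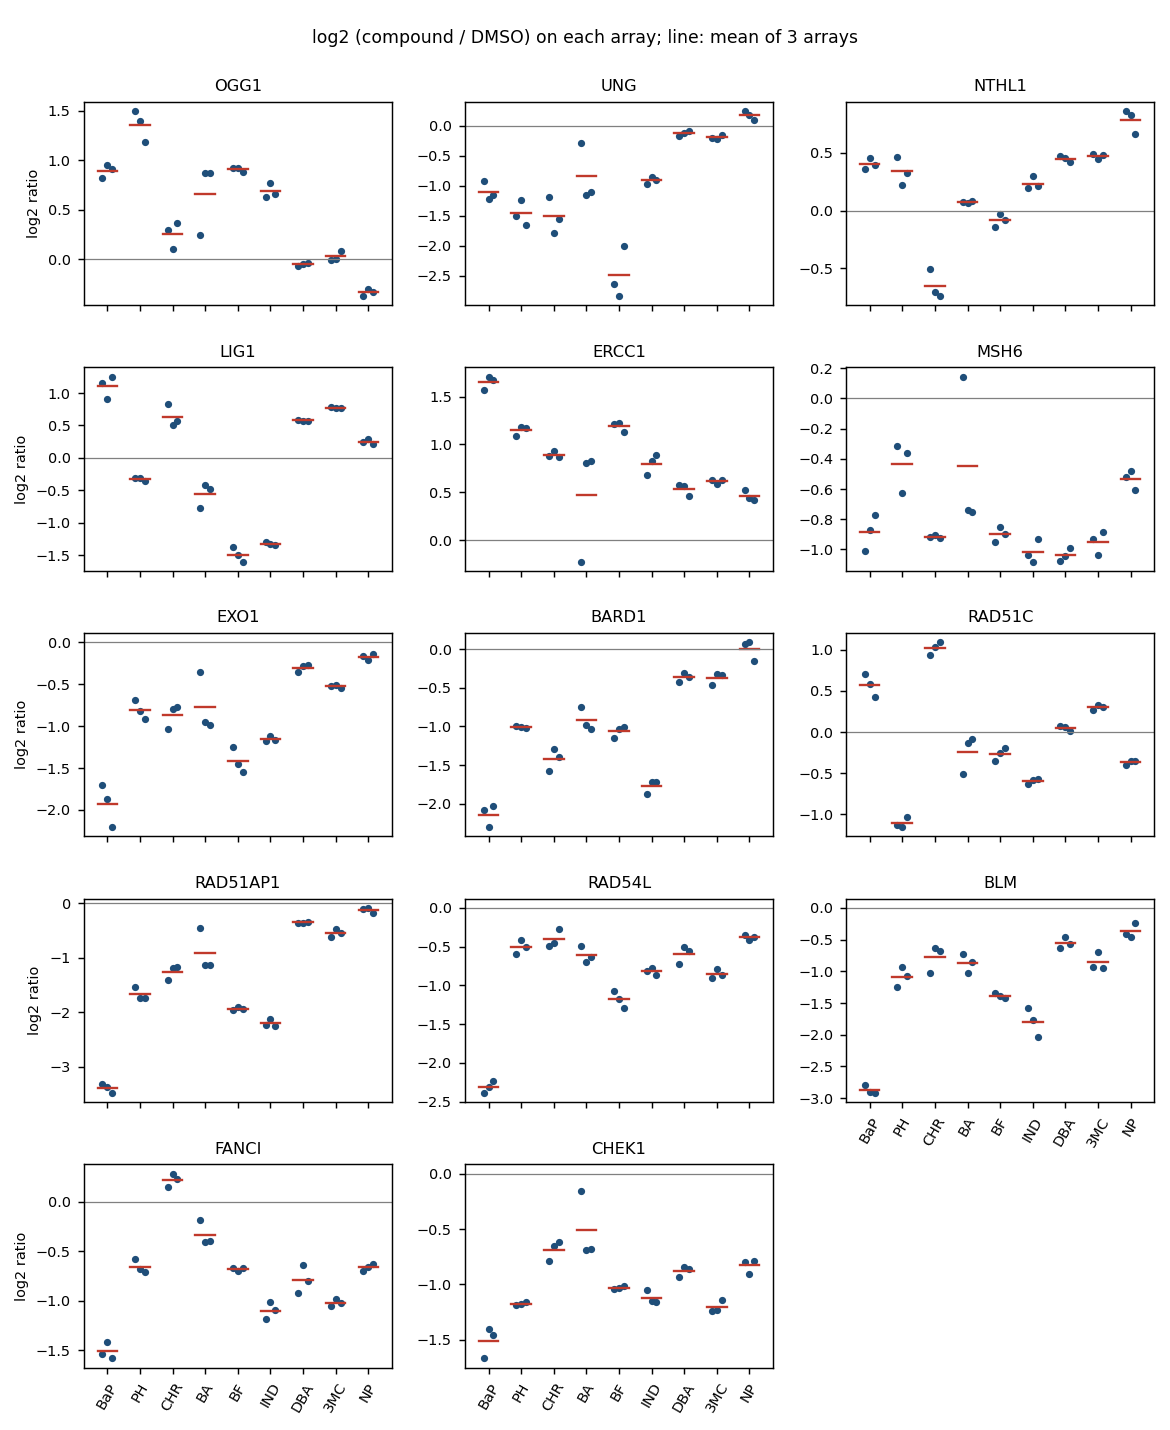
Log2 ratio of compound over DMSO on each array (points) and the mean of 3 arrays (line) for the 14 members given array by array, with 9 compounds on the horizontal axis of each panel. The 3 arrays of a compound lie close together except for BA, where array 1 stands nearer 0 in most panels, and RAD51AP1 with BaP is the lowest point drawn.

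Homologous recombination had the lowest median of the 8 classes with BaP and PH, while with the other 7 compounds the median of the 2 mismatch repair members was lower. All 8 of its members fell with IND (median -1.0, with 13.2% of all genes falling), and 7 fell with BaP (median -2.09, 10.0%). Falls numbered 6 with PH (7.89%), 5 with BF (20.4%), and 4 each with CHR (12.3%) and BA (3.10%). They numbered 3 with 3MC (7.47%), 2 with DBA (7.25%) and 1 with NP (12.6%). RAD51C with CHR was the only rise of the 8. Of 16 other recombination genes, 8 fell and 1 rose with BaP and 6 fell with IND (medians -0.54 and -0.48). With PH 2 of them fell, and with BF 3 fell and 3 rose (median -0.17 each). With CHR 3 fell and 1 rose, and 3 fell with each of BA, DBA, 3MC and NP. RAD51AP1, which takes part in strand exchange, was the lowest member with BaP, PH and IND. It read -3.33, -3.37 and -3.48 on the BaP arrays, -2.24, -2.12 and -2.25 on the IND arrays and -1.97, -1.91 and -1.95 on the BF arrays. It read -1.55, -1.74 and -1.74 with PH, -1.41, -1.20 and -1.17 with CHR and -0.45, -1.14 and -1.14 with BA. With BaP its spot averaged 371 intensity units, against 4420 in DMSO, and no BaP array overlapped any array of another compound. On the DBA, 3MC and NP arrays it lay between -0.62 and -0.09. Its DMSO level over the array's median spot was 0.21, -0.30 and -0.84 there, and 1.60 (BA) to 3.14 (BaP) on the others of the shared platform.

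BLM, the helicase lost in Bloom syndrome, fell with 7 compounds. The BaP arrays read -2.80, -2.90 and -2.92, the IND arrays -1.58, -1.76 and -2.04 and the BF arrays -1.35, -1.38 and -1.43. The PH arrays read -1.25, -0.93 and -1.07, the BA arrays -0.72, -1.02 and -0.86 and the 3MC arrays -0.93, -0.69 and -0.95. The CHR arrays read -1.02, -0.64 and -0.67, and all 27 arrays were below 0, with DBA and NP at -0.55 ± 0.09 and -0.37 ± 0.11. RAD54L, a motor protein of the same route, fell to -2.39, -2.32 and -2.23 on the BaP arrays and -1.07, -1.18 and -1.29 on the BF arrays. It read -0.91, -0.79 and -0.87 with 3MC, -0.81, -0.77 and -0.87 with IND, -0.49, -0.70 and -0.64 with BA and -0.73, -0.50 and -0.56 with DBA. BaP was again apart from all others, and RAD54L was below 0 on every array. It missed the minimum change with BA without BA array 2 (-0.56) and with DBA without DBA array 1 (-0.53), and with median centring in both (-0.46 and -0.55).

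BARD1, the partner of BRCA1, fell with the same 6 compounds as RAD51AP1. It read -2.08, -2.30 and -2.03 with BaP, -1.87, -1.71 and -1.72 with IND and -1.57, -1.29 and -1.39 with CHR. It read -1.15, -1.03 and -1.01 with BF, -1.0, -1.01 and -1.02 with PH and -0.75, -0.98 and -1.03 with BA. On the DBA, 3MC and NP arrays it lay between -0.46 and 0.09. BRCA1, the tumour suppressor that BARD1 binds, had another pattern. It fell with BaP (-1.23, -1.27 and -1.29), 3MC (-1.18, -1.18 and -1.24) and DBA (-0.99, -0.82 and -0.88), and with IND (-0.76, -0.77 and -0.68) and NP (-0.72, -0.72 and -0.73). With BF and BA it stood at -0.08 ± 0.02 and -0.09 ± 0.09, close to 0, where BARD1 was near -1. The DMSO levels over the array's median spot differed as well. That of BRCA1 was 1.03, 1.32 and 1.99 on the DBA, 3MC and NP arrays, and -1.17 (CHR) to 0.08 (PH) on the others of the shared platform. That of BARD1 was 0.04, -0.42 and 0.15 on the DBA, 3MC and NP arrays, and 1.78 (BA) to 2.65 (BaP) on the others. The part of spot brightness in these patterns was not tested. BRCA2, a tumour suppressor of the same route, fell with BaP (-1.41 ± 0.21), IND, CHR and PH, the last 3 between -0.84 and -0.72. BRIP1, a helicase that binds BRCA1, fell with BaP (-2.04 ± 0.05), IND (-1.15), BF (-0.81) and PH (-0.61), the last at -0.55 without PH array 1 or 2. In the compound channel BRIP1 was not well above background on any array of DBA, 3MC or NP, which gives only a bound, at least 1.21-fold lower than DMSO with 3MC (adjusted p = 0.000105 in limma) and at least 1.22-fold lower with NP (adjusted p = 0.000534). Such a bound sets the bright channel against the higher of the dim spot and the lowest signal well above background. BRCA2 was not well above background with DBA either, and no fold is given for it or for BRIP1 there.

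RAD51C, which acts in the same route, was the exception of the class. It rose with CHR (0.93, 1.03 and 1.09) and stood at 0.70, 0.58 and 0.42 with BaP, short of the minimum change. It fell with PH (-1.14, -1.16 and -1.04) and IND (-0.64, -0.58 and -0.57), with IND at -0.58 without IND array 1. The other arrays lay between -0.51 and 0.33, so the CHR and PH arrays formed the ends of the range with no overlap.

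Of the 4 Fanconi anaemia members, 3 fell with BaP (10.0% of all genes) and with IND (13.2%). With PH, BF, DBA and 3MC 2 each fell (7.89%, 20.4%, 7.25% and 7.47%), and with CHR and NP 1 each (12.3% and 12.6%). None fell with BA (3.10%), where FANCG stood at -0.55 and FANCI at -0.33. FANCI, which with FANCD2 forms the complex clamped onto blocked DNA, fell with 7 compounds. It read -1.54, -1.42 and -1.58 with BaP, -1.19, -1.02 and -1.10 with IND and -1.05, -0.99 and -1.02 with 3MC. It read -0.93, -0.63 and -0.80 with DBA, -0.67, -0.70 and -0.67 with BF, -0.57, -0.68 and -0.71 with PH and -0.70, -0.66 and -0.63 with NP. With CHR it was above 0 on all 3 arrays (0.15, 0.28 and 0.22), the only compound of the 9 where it was, but a second probe read -0.24 there. FANCD2 fell with 3MC (-1.23, -1.11 and -1.14), BaP (-0.92, -0.96 and -0.91) and DBA (-1.05, -0.79 and -0.92). Its other 2 probes agreed for BaP, at -0.95 and -1.04, but not for 3MC, at 0.16 and -0.05, nor for DBA, at 0.08 and -0.02. FANCG, of the core complex, fell with BaP (-1.30 ± 0.20), IND, BF, PH and CHR, the last 4 between -0.88 and -0.62, and with CHR it missed the minimum change without CHR array 1 (-0.58). As means over probes FANCD2 with 3MC (-0.35) and DBA (-0.29) and FANCI with NP (-0.41) did not pass, and with median centring FANCI with BF stood at -0.45. FANCA, of the same complex, was dim, and with IND its compound channel was not well above background on any array, so that it was at least 1.61-fold lower than DMSO (adjusted p = 4.92e-06 in limma). With the other 8 compounds its means lay between -0.35 and -0.19.

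Of the checkpoint kinases, CHEK1 fell with 8 compounds, more than any other member. It read -1.67, -1.40 and -1.46 with BaP, -1.24, -1.23 and -1.14 with 3MC and -1.19, -1.18 and -1.16 with PH. It read -1.05, -1.15 and -1.16 with IND, -1.04, -1.03 and -1.01 with BF and -0.93, -0.84 and -0.86 with DBA. It read -0.79, -0.90 and -0.79 with NP and -0.78, -0.65 and -0.62 with CHR. With BA it read -0.16, -0.69 and -0.68, and arrays 2 and 3 lay with the CHR arrays while array 1 stood apart. All 27 arrays were below 0. CHEK2, the kinase downstream of ATM, fell with PH (-0.82 ± 0.10), BaP (-0.64 ± 0.05) and IND (-0.59 ± 0.04), and with 3MC it stood at -0.57. ATR rose with BF (0.72, 0.91 and 0.56) and CHR (0.42, 0.62 and 0.74), where its arrays were spread more than those of CHEK1. With CHR it missed the minimum change without CHR array 2 (0.58) or 3 (0.52), and so did CHEK2 with IND without IND array 3 (-0.56). With median centring CHEK2 with BaP stood at -0.51 and ATR with CHR at 0.52. ATM passed with none, between -0.54 (IND) and 0.30 (BA), but its other 2 probes read -1.02 and -0.62 with BaP where the probe used read -0.05.

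**Figure D3:**
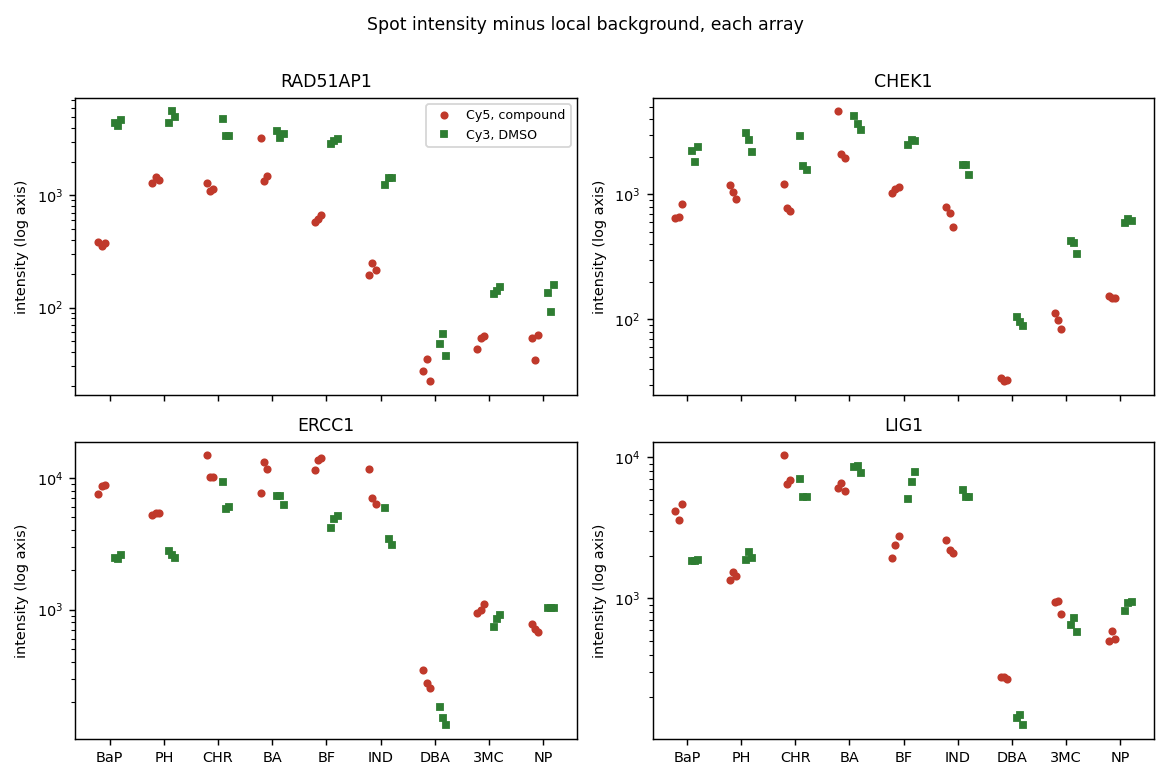
Spot intensity minus local background on each array (log axis) for RAD51AP1, CHEK1, ERCC1 and LIG1, with the compound (Cy5, circles) left of DMSO (Cy3, squares) for each of 9 compounds on the horizontal axis. RAD51AP1 and CHEK1 circles lie below the squares of the same arrays except for CHEK1 on BA array 1, ERCC1 circles lie above them on most arrays, and all DBA, 3MC and NP spots are dimmer.

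A list of 12 proliferation genes, given beside the repair classes because recombination genes are transcribed in cycling cells, fell on the same arrays. With BaP 11 of 12 fell (median -3.20, with 10.0% of all genes falling), with BF 11 (median -2.35, 20.4%), with PH 11 (median -1.59, 7.89%) and with IND 12 (median -1.57, 13.2%). With CHR 10 fell and 1 rose (median -1.19, with 12.3% and 11.7% of all genes), and with BA 10 fell (median -0.87, 3.10%). With DBA and 3MC 8 each fell (median -1.14 each, 7.25% and 7.47%) and with NP 5 fell (median -0.47, 12.6%). The proliferation median was below that of every repair class with each of the 9 compounds, and its part in the falls of the members was not tested.

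**Figure D4:**
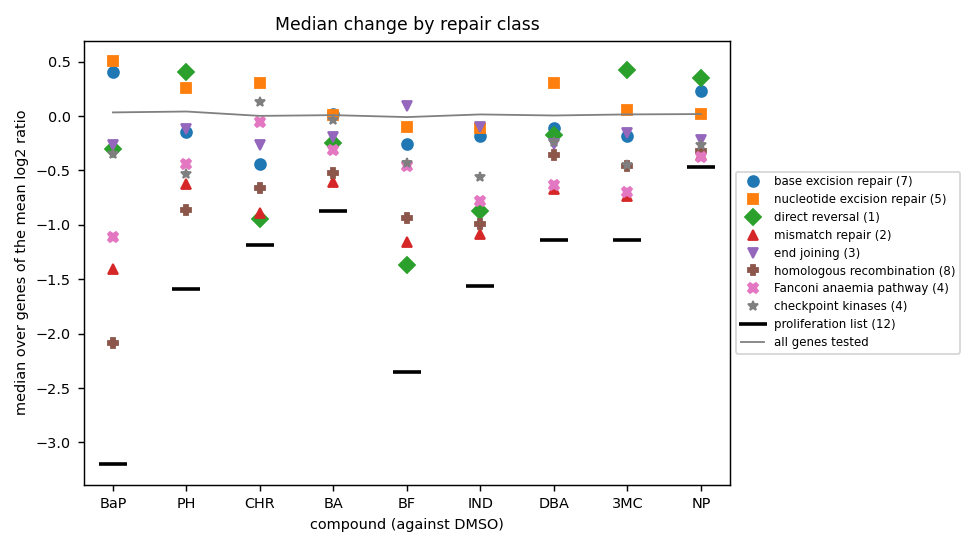
Median over the genes of a class of their mean log2 ratio of compound over DMSO (vertical axis) for 8 repair and checkpoint classes, a list of 12 proliferation genes (bars) and all genes tested (line), by compound (horizontal axis). The proliferation bar lies lowest with each compound, homologous recombination at -2.09 with BaP is the lowest class value, and the line over all genes stays near 0.

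Pairs of compounds were compared by contrasts of their means, 6 pairs in all, with p-values adjusted over genes and pairs together. Since doses are not given, the compounds are compared as applied. BaP and BF are isomers, where BaP is built of benzene rings alone and BF also holds a cyclopenta ring. In BaP minus BF, 10 of 34 members were lower and 8 higher, while 13.5% of all genes were lower and 21.8% higher. Of the 8 recombination members 7 were lower with BaP, with a median difference of -1.16. BLM differed by -1.49 (95% interval -1.70 to -1.27) and RAD51AP1 by -1.45 (-1.71 to -1.20). BRCA1 differed by -1.19 (-1.33 to -1.05), since its BaP mean was -1.27 and its BF mean -0.08. The members higher with BaP were LIG1, ERCC2, UNG, MGMT, RAD51C, PARP1, ERCC3 and ERCC5, with no member of mismatch repair, the Fanconi pathway or the kinases. With median centring PARP1 (0.42), ERCC3 (0.43) and ERCC5 (0.53) did not reach the minimum change, and 12 members were lower and 6 higher, as against 14 and 6 with the authors' deposited log2 ratios. LIG1 had the widest gap of any member in the 6 pairs, at 2.60 (2.40 to 2.79). Its level against the array's median spot was 3.09 in the compound channel and 1.89 in DMSO on the BaP arrays, and 2.78 and 3.57 on the BF arrays, so the channel that differed most between these arrays was DMSO. The same held for ERCC2, at 0.07 and 0.14 on the BaP arrays, and 0.04 and 1.63 on the BF arrays.
OGG1 and MSH6 did not pass, with differences of -0.02 (-0.26 to 0.23) and 0.02 (-0.30 to 0.33). CHEK1 did not reach the minimum change, at -0.48 (-0.69 to -0.27), nor did ERCC1, at 0.46 (0.12 to 0.80).

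CHR and BA are also isomers, where CHR has its rings in an angular row and BA has a straight anthracene core with an angular ring. In CHR minus BA 4 members were lower and 4 higher (9.37% and 9.28% of all genes), and 5 lower and 4 higher without BA array 1. RAD51C and LIG1 were higher with CHR, by 1.26 (1.08 to 1.45) and 1.20 (1.0 to 1.39), as were ERCC5 and ATR. NTHL1, MGMT, ERCC2 and UNG were lower with CHR, with differences of -0.72, -0.70, -0.69 and -0.67. None of the 8 recombination members was lower, and BLM differed by 0.09 (-0.13 to 0.31). Without BA array 1, ATR (0.34, adjusted p = 0.0691 in limma) and UNG (-0.39, adjusted p = 0.0738 in limma) did not pass. With median centring 7 members were lower and 2 higher, and ERCC5 (0.51) and ATR (0.39) did not reach the minimum change. The count was 5 without CHR array 2 and 13 without BA array 3.

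**Figure D5:**
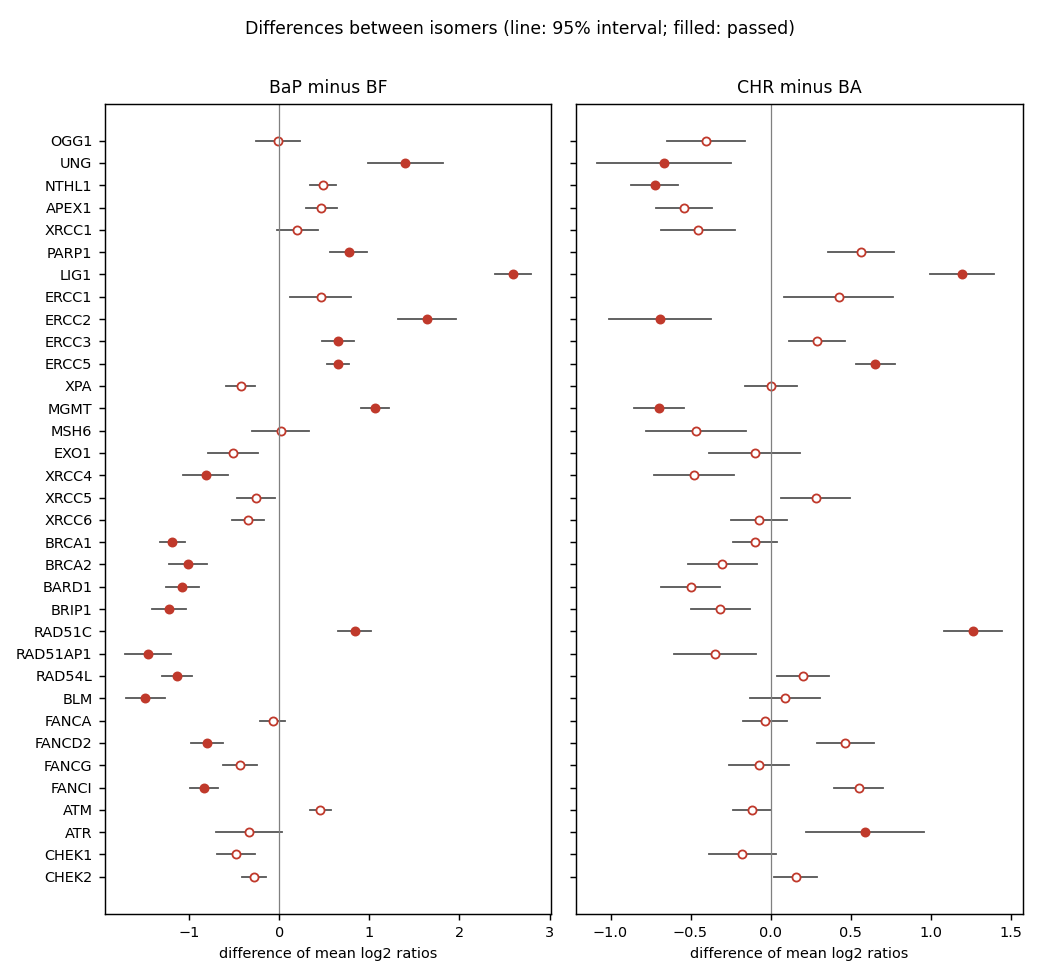
Difference of mean log2 ratios (horizontal axis) between the isomers BaP and BF (left) and CHR and BA (right) for the 34 members, with the 95% interval as a line and a filled point where the difference passed the adjusted p of 0.05 and 1.5-fold. Left, recombination genes other than RAD51C lie below 0 and LIG1 lies at 2.60, and right, RAD51C and LIG1 lie highest.

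The other 4 pairs were BaP and PH, BF and CHR, DBA and 3MC, and DBA and NP. In BaP minus PH, 12 members were lower and 5 higher (9.82% and 11.9% of all genes). Again 7 of 8 recombination members were lower with BaP, among them RAD54L (difference -1.81) and BLM (-1.79). RAD51C was higher with BaP by 1.68 and LIG1 by 1.43. In BF minus CHR, 11 were lower and 2 higher (17.0% and 11.2%), with LIG1 lower (difference -2.13) as well as RAD51C (-1.29), and OGG1 (0.57, under the minimum change, without CHR array 2) and XRCC4 higher. With median centring 10 were lower and 6 higher, and with the authors' deposited log2 ratios 9 were lower and 4 higher. LIG1 passed in BaP minus BF, CHR minus BA, BaP minus PH and BF minus CHR, and in neither pair with DBA. Its DMSO level was 1.89 with BaP and 1.69 with PH, but 3.57 with BF, 2.49 with CHR and 2.85 with BA. Between the dim arrays few members passed. In DBA minus 3MC, MGMT alone was lower (difference -0.60, and -0.58 to -0.56, under the minimum change, without DBA array 1, DBA array 3 or 3MC array 1) and 0 were higher, with 0.944% of all genes lower and 1.35% higher. With median centring MGMT did not pass (-0.42), and 0 members were lower and 1 higher. In DBA minus NP, APEX1, XRCC1 and FANCG were lower (differences -0.84, -0.68 and -0.61) and 0 were higher, with 4.51% of all genes lower and 6.83% higher. The direction in both pairs rests on the normalisation, since in DBA minus NP with median centring none of the 34 was lower and 5 were higher, and FANCG did not pass without DBA array 1 either (-0.58). In limma, 16 and 17 members had an unadjusted p under 0.05 in these pairs.

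The pathway has many more genes than the 34, and 92 others were listed from textbook knowledge, of which 91 were tested with IND. Of these 92, 42 fell with at least 1 compound and rose with none, 14 rose and fell with none, 12 did both and 24 neither. Over all 17584 genes tested with any compound these shares were 28.3%, 23.1%, 11.2% and 37.5%. With BaP 26 fell and 9 rose (10.0% and 15.1% of all genes), with BF 26 and 16 (20.4% and 16.0%) and with IND 26 and 3 (13.2% and 10.5%). With NP 21 fell and 4 rose (12.6% and 6.72%), with DBA 18 and 1 (7.25% and 3.08%) and with 3MC 18 and 5 (7.47% and 3.68%). With CHR 16 fell and 8 rose (12.3% and 11.7%), with PH 15 and 3 (7.89% and 10.6%) and with BA 10 and 1 (3.10% and 2.04%). The BF rises were thus near the share over all genes. USP1, which takes ubiquitin off FANCD2, fell with 8, deepest with DBA at -1.70. CDC25C, the phosphatase that CHEK1 holds back, fell with 7 and reached -3.27 with BaP, and NEIL3, a glycosylase of replicating cells, fell with 7 and reached -3.70. DDB2, which finds bulky lesions for nucleotide excision repair, rose with 5, at 2.50 with BaP, 2.41 with CHR, 1.57 with DBA, 1.51 with 3MC and 1.05 with BF. XPC, its partner in finding lesions, rose with BaP (1.09), CHR (0.98) and 3MC (0.67). POLH, the polymerase that copies past lesions, rose with CHR (1.59), BF (1.34), BaP (0.81) and IND (0.61) and fell with PH (-0.66). APEX2, a relative of APEX1, rose with BF (1.28), BaP (0.95), CHR (0.91) and IND (0.82). Neither DDB2 nor XPC passed with PH, BA, IND or NP.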

How the data were processed

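Agilent 2-colour oligonucleotide arrays of HepG2 cells were scanned in 27 hybridisations, 3 for each of 9 compounds, and grouped by their labels. The deposited scanner files give, per the file headers, the mean spot intensity and the median local background of both channels and, spot by spot, the percent of pixels that were saturated, with no background subtracted. The authors also deposited log2 ratios, whose normalisation is not given in the sources used here. Of their 27 columns, 20 correlated above 0.5 with the scanner values of the same array, and only these were used, as an alternative.

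Intensities were corrected by normexp (offset 50) and loess-normalised within each array in limma 3.58.1 (R 4.3.3), with control spots and flags of -75 or below at weight 0, and replicate spots were averaged. Probes were kept where a channel exceeded background by over 2 background SDs on 2 or more of the 3 arrays given any compound, and the brightest kept probe stood for a gene. A percent of saturated pixels of 50 or more counted as saturated. Gene names came from the files and the RefSeq table, matched by transcript, for 26427 of the 41000 shared-platform probes and 26789 of the 41000 IND-platform probes. On the shared platform 9 probes took the name of the same probe's transcript on the other platform. One mean per compound was fitted on the 24 arrays of the shared platform, and IND alone. Calls needed an adjusted p under 0.05 and 1.5-fold, and the 6 contrasts were adjusted together. The number of arrays limits the precision. The fits were tested on simulated data. Tables and figures used Python 3.11.15.

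The members and all gene lists were chosen with earlier results of these data known. Values are given array by array for members called with 6 or more compounds and for the highest and lowest called member of each compound, which made 14. Other repair genes are named for the most calls in a direction, up to 4 each (1 gene that this takes is not reported here), and some differences between the probes of a member are given. Array numbers did not pair the arrays, since residuals of arrays with the same number correlated at 0.00288 on average over 84 pairs. Alternatives were plain or no background subtraction, median centring, scaling between arrays, other filters, spots not found left out, the mean over probes, array weights, a replicate block, separate fits, no minimum change, the authors' deposited log2 ratios and leaving out each array.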

Additional observations from a re-analysis of the deposited data

How the results depend on the processing

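Of the member values against DMSO under settings other than leaving out an array, 3598 kept their side of the threshold. They include values that passed in neither setting, so they are not a count of calls that held. Those of them that did not pass may have changed sign. A further 204 passed only under the alternative and 36 only in the reported setting. In 1 case the value passed under the alternative with the opposite sign. That was XRCC5 with BF, which stood at 0.73 with median centring in place of loess. Between compounds 2442 kept their side of the threshold, 137 passed only under the alternative and 27 only in the reported setting.

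The background correction moved the counts on the dim arrays. With plain subtraction 14 members passed with 3MC (9 as reported), 19 with DBA (7), 8 with NP (5) and 12 in DBA minus NP (3), the last all lower. With median centring 9 passed with NP, all falls, and 5 in DBA minus NP, all higher where the reported 3 were lower. With no minimum change 32 passed with BaP, 28 with PH, 31 with CHR, 22 with BA, 28 with BF, 25 with DBA, 25 with 3MC and 26 with NP. In that setting 29 passed in BaP minus BF, 25 in CHR minus BA, 29 in BaP minus PH, 27 in BF minus CHR, 16 in DBA minus 3MC and 16 in DBA minus NP. BA fitted alone gave 0 calls in limma (16 members at an unadjusted p under 0.05), against 7 in the joint fit. The authors' deposited log2 ratios gave 4 with BA, and 7 of 22 tested in DBA minus NP. With spots not found left out 0 of 23 tested passed in DBA minus 3MC in limma (11 at an unadjusted p under 0.05). The causes were not tested.

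Leaving out 1 array gave 19 to 22 calls with BaP, 15 to 17 with PH, 15 to 17 with CHR, 6 to 10 with BA, 17 in each refit with BF, 20 to 21 with IND, 6 to 7 with DBA, 9 to 10 with 3MC and 5 to 6 with NP. Between compounds it gave 18 to 19 in BaP minus BF, 5 to 13 in CHR minus BA, 16 to 17 in BaP minus PH, 11 to 15 in BF minus CHR, 0 (without DBA array 1, DBA array 3 or 3MC array 1) to 1 in DBA minus 3MC and 2 to 3 in DBA minus NP. In all, 23 calls were lost in at least 1 such refit.

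With array number as a replicate block, which does not pair these arrays, the counts were 20 with BaP, 16 with PH, 17 with CHR, 7 with BA, 17 with BF, 7 with DBA, 9 with 3MC and 5 with NP. They were 18 in BaP minus BF, 8 in CHR minus BA, 17 in BaP minus PH, 13 in BF minus CHR, 1 in DBA minus 3MC, 3 in DBA minus NP and 33 in the F test, the same as without the replicate block. For IND alone neither this block, a separate fit nor the authors' values could be run.

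Limits are set by 3 arrays per compound with 1 dye orientation, unstated doses and cultures, a DMSO channel that differs between arrays, and the low signal over background of the DBA, 3MC and NP arrays. Genes with several probes rest on the brightest one.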
